A study of Mus musculus with 3 samples.

Results

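The 7 genes described here across mouse back skin are the ligands *Ptn* (pleiotrophin) and *Mdk* (midkine), the phosphatase receptor *Ptprz1*, and the syndecans *Sdc1*, *Sdc2*, *Sdc3* and *Sdc4*. They were chosen by name, with earlier results of these data known, since *Ptn* had been seen to pass from a dermal to an epithelial excess by birth. All 7 were among the 19165 genes of the deposited table. Male C57BL/6 mice without a transgene or treatment were used, and whole back skin was taken at E13.5, E16.5 and P0 (birth), with animals pooled into 1 single-cell library per stage. Trypsin/EDTA released the cells of both embryonic stages and collagenase IV those of P0, so stage, library and digestion cannot be told apart. No library was repeated, so the differences below lack a check by replicates and were given no test.

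Pleiotrophin and midkine are small secreted proteins that bind heparin and form a family of their own. They bind the sulfated sugar chains of cell-surface proteoglycans, among them the syndecans, and the receptor tyrosine phosphatase encoded by *Ptprz1*. Syndecans are membrane proteins that carry heparan sulfate, and syndecan-1 is a textbook protein of the epidermis and of condensing mesenchyme. In skin, the hair follicle forms where an epithelial placode meets a dermal condensate (DC), which later becomes the dermal papilla (DP) inside the hair bulb, while the placode gives rise to the matrix and the root sheaths.

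On GRCm38 in the GENCODE vM21 annotation, *Ptn* lies on chromosome 6 from 36714929 to 36810220 (minus strand) and *Ptprz1* on the same chromosome from 22875502 to 23052916 (plus strand). *Mdk* lies on chromosome 2 from 91929805 to 91932297 and *Sdc4* on chromosome 2 from 164424247 to 164443887, both on the minus strand. The other syndecans lie on plus strands, *Sdc1* on chromosome 12 from 8771323 to 8793715, *Sdc2* on chromosome 15 from 32920723 to 33034935 and *Sdc3* on chromosome 4 from 130792537 to 130826319. *Sdc3* overlaps 2 antisense genes, *Gm12970* and *Gm26716*, and the other 6 overlap no annotated gene.

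The 250 bases before the RefSeq start are shown for *Ptn*, *Sdc1* and *Sdc4*, 3 of the 5 genes with such a window, which *Mdk* and *Sdc2* lacked. The RefSeq and GENCODE starts differ. By the GENCODE coordinates above, the *Sdc4* window lies wholly inside the gene, and the *Ptn* and *Sdc1* windows run into theirs at the 3′ end. They are written 5′ to 3′ on the gene's strand, from GRCm38.p6 at chr6:36810180-36810429, chr12:8771146-8771395 and chr2:164443189-164443438, and capitals mark the motifs found.
Ptn: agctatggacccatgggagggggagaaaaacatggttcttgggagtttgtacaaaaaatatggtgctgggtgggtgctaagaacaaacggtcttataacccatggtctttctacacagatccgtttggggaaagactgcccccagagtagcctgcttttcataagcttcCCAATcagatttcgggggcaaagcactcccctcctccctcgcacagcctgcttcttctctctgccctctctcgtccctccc
Sdc1: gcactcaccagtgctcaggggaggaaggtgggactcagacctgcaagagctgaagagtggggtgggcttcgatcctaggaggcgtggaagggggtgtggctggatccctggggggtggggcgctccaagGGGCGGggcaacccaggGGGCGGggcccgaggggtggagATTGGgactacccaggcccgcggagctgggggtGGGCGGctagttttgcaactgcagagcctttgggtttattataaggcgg
Sdc4: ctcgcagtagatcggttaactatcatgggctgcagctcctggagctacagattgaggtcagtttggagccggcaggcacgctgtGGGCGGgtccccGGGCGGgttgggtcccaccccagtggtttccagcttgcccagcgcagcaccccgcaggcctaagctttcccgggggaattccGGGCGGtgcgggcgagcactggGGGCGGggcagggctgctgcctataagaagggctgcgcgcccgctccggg

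Motifs were searched on both strands: the GC box GGGCGG, the TATA box TATAAA, the TCF/LEF core CTTTGA, the CCAAT box CCAAT and the E-box CACGTG, and no 2 of the matches shown overlap. *Ptn* held no GC box and 1 CCAAT box, with a GC content of 52.0%. *Sdc1* held 3 GC boxes and 1 CCAAT box (66.0% GC) and *Sdc4* held 4 GC boxes (68.0% GC). Of 32851 promoter windows of the same length, 32.7% held a GC box, 33.8% a CCAAT box, 12.4% a TATA box, 13.8% the TCF/LEF core and 6.02% the E-box, and the median GC content was 52.4%. *Sdc3* and *Ptprz1* were also matched (76.4% and 71.6% GC, with 3 and 2 GC boxes), so 5 of 7 genes had a window. None of the 5 windows held a TATA box, a TCF/LEF core or an E-box in these letters. These are matches of letters and were not tied to the counts below.

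The libraries held 5962, 5208 and 5065 cells with medians of 7066.5, 11021 and 6797 UMIs (unique molecular identifiers, each standing for 1 captured transcript). Cells were clustered in each library without the 7 genes and without 79 genes of their pathway, and clusters were named from marker lists, hence "dermal-like". The dermal-like class held 1664, 2864 and 2508 cells at E13.5, E16.5 and P0 and the epithelial-like class 459, 955 and 1469. At E16.5 and P0, 9 of 10 dermal markers and 9 of 10 epithelial markers were highest in their own class, and at E13.5 10 of 10 epithelial but 6 of 10 dermal markers were. The 38 cells named erythroid-like at P0 had 5 of 8 erythroid markers highest among the classes, with summed epithelial markers at 37.9% of the epithelial-like level. None of their levels is given, but they are among the 28 groups over which genes are compared below. Clusters led by genes of another class, or with too few markers, were left unnamed (20.7%, 7.26% and 5.13% of cells). Levels are UMIs summed over a group and scaled to 1000000 UMIs of that group (CPM), with 95% exact Poisson intervals that cover counting error only. Differences are log2 ratios of CPM with 10 added, and "past the fold" means a log2 difference of at least 1 among genes with at least 50 UMIs in both groups together. UMIs tag the 3′ end, and levels are compared between groups for each gene, not between genes.

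**Figure D1:**
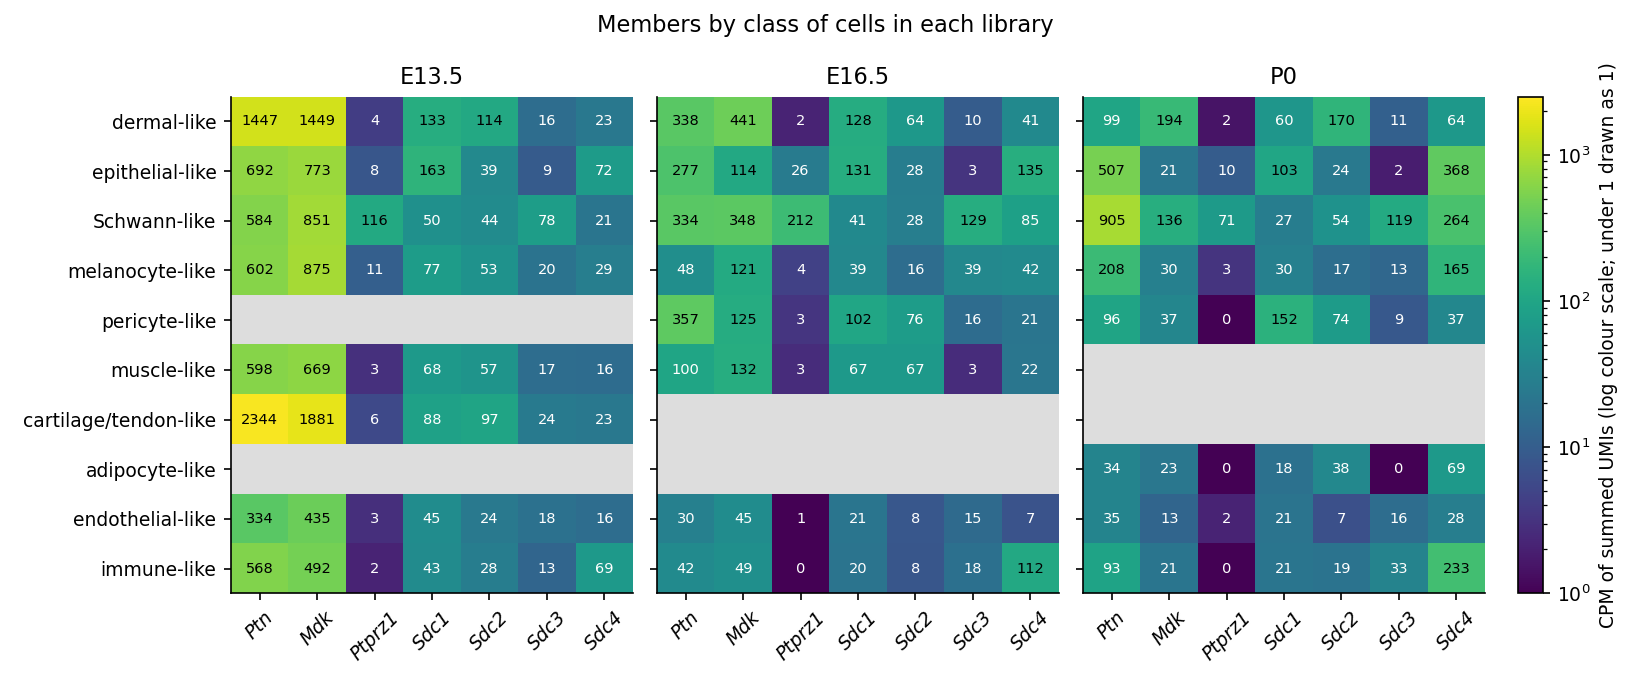
Level of each gene (columns, CPM of summed UMIs, log colour scale) in the classes of cells drawn (rows) at E13.5, E16.5 and P0. Grey marks drawn classes that were not found, and neural-like, erythroid-like and unnamed cells are not drawn. Columns are to be read downwards: *Ptprz1* and *Sdc3* peak in Schwann-like cells, *Sdc4* is higher in epithelial-like than in dermal-like cells at every stage, and *Ptn* is 1447, 338 and 99.5 CPM in dermal-like and 692, 277 and 507 CPM in epithelial-like cells.

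*Ptn* was the gene whose excess changed sides. In dermal-like cells its level was 1447 CPM (interval 1428 to 1465), then 338 CPM (331 to 344) and finally 99.5 CPM (94.7 to 104) in the E13.5, E16.5 and P0 libraries. In epithelial-like cells it was at 692 CPM (667 to 718), 277 CPM (269 to 286) and 507 CPM (497 to 517). The dermal level was thus lower at each later stage, while the epithelial level was lowest at E16.5 and was higher again at P0. The epithelial-like class held unlike cells at these stages. Periderm-like cells were 269 of 459 at E13.5 and were not named later. Placode-like or matrix-like cells were 141 of 955 at E16.5 and 379 of 1469 at P0, and outer root sheath-like cells 40 and 352. The part of this make-up in the levels was not tested, and levels by sub-group are given below. The log2 difference, dermal-like minus epithelial-like, was 1.05 (0.998 to 1.11) at E13.5, 0.27 (0.23 to 0.32) at E16.5 and -2.24 (-2.31 to -2.17) at P0. Since the gene was chosen for this pattern, these values are a description. Of 10993 genes with enough UMIs at every stage, 8 were past the fold to the dermal side at E13.5 and to the epithelial side at P0, *Ptn* among them. Its E13.5 difference lay at the edge of the fold and was under 1 in 4 alternatives that used both whole classes, at 0.92 with finer clusters (resolution 2), 0.95 with the described genes used in clustering, 0.95 with each cell weighed alike and 0.99 after thinning to 3500 UMIs per cell.

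The share of the library's *Ptn* UMIs, set against the share of cells, gave the same sides at E13.5 and P0 but not at E16.5. Dermal-like cells were 27.9%, 55.0% and 49.5% of the cells and held 35.2%, 63.5% and 12.3% of the *Ptn* UMIs. Epithelial-like cells were 7.70%, 18.3% and 29.0% of the cells and held 4.43%, 24.1% and 73.6%. At E16.5 the UMI share thus exceeded the cell share by more, in proportion, in epithelial-like than in dermal-like cells. Epithelial-like cells were also deeper there (medians of 13632 and 10600 UMIs). The CPM difference of 0.27 to the dermal side is scaled by depth, so the E16.5 side depended on the unit. With every cell thinned to 3500 UMIs, 17.1% of dermal-like and 72.8% of epithelial-like cells at P0 had a *Ptn* UMI (24.6% and 86.9% before thinning, at median depths of 6011.5 and 9629 UMIs). In endothelial-like and immune-like cells of that library, which serve as the background of free RNA, it was 7.69% and 10.6% (21.4% and 18.2% before thinning, at medians of 9938.5 and 8220.5 UMIs). The P0 dermal-like level of 99.5 CPM was not above the 92.6 CPM (71.0 to 119) of immune-like cells but was above the 34.6 CPM (28.0 to 42.3) of endothelial-like cells, and the epithelial-like level of 507 CPM was above both. The immune-like cells of P0 had summed epithelial markers at 17.3% of the epithelial-like level, against 3.40% in dermal-like and 4.93% in endothelial-like cells, and their *Col1a1* was at 5.49% of the dermal-like level.

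At E13.5 the ligands and dermal genes were counted in every class. Immune-like cells there held *Ptn* at 39.3%, *Mdk* at 34.0% and the collagen gene *Col1a1* at 42.4% of their dermal-like levels, and endothelial-like cells held them at 23.1%, 30.0% and 32.7%. The 712 erythroid-like cells of E13.5 had summed dermal markers at 66.6% of the dermal-like level. They held *Mdk* at 1082 CPM (1053 to 1111), above the 773 CPM of epithelial-like cells. At E16.5 the immune-like share of the dermal-like level was 12.4% for *Ptn* and 12.8% for *Col1a1*. The E13.5 epithelial-like class had 47.8% of the dermal-like *Ptn* level beside 40.3% of the *Col1a1* level, and its summed dermal markers were at 29.6% of the dermal-like level, against 12.9% at E16.5 and 6.30% at P0. In the 5 of 12 E13.5 epithelial-like clusters whose dermal markers were under 20% of the dermal-like level (176 cells, *Col1a1* at 8.51%), *Ptn* was at 359 CPM, 24.8% of the dermal-like level, and the log2 difference became 1.98. These 5 clusters were unlike each other. Those led by *Krt15*, *Gjb6* and *Krt14* held 899 and 702 CPM of *Ptn*, those named from periderm markers held 134 and 123 CPM, and the suprabasal-like cluster held 403 CPM. The 3 highest epithelial-like clusters of that stage, at 1456, 1349 and 1235 CPM, were periderm-like and had summed dermal markers at 60.3%, 68.3% and 64.3% of the dermal-like level. The part of dermal RNA in the E13.5 epithelial level was not tested. At P0 the same restriction (41 of 43 clusters, *Col1a1* at 1.83%) left *Ptn* at 520 CPM in epithelial-like cells.

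Within the dermis, *Ptn* was carried by deep dermal-like cells, named from genes of the lower dermis and fascia such as *Dlk1* and *Mfap5*. Their level was 3295, 777 and 178 CPM in the order of the stages. Upper dermal-like cells, named from genes such as *Crabp1* and *Apcdd1*, held 434, 104 and 90.3 CPM. The log2 difference, deep minus upper, was 2.89 (2.84 to 2.95), 2.79 (2.71 to 2.86) and 0.91 (0.75 to 1.07), where 5.38%, 2.76% and 7.96% of all genes tested were past the fold in either direction. *Ptn* was the 1 gene of the 7 past the fold at E13.5 and at E16.5, and *Sdc2* was at P0. DC/DP-like cells were low (79.2 CPM in the E16.5 and 41.3 CPM in the P0 library), which is -2.17 and -1.21 on the log2 scale against the other dermal-like cells (2.07% and 4.44% of genes past the fold).

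The dermal cells used therefore set the sign of the *Ptn* difference before birth. Against upper dermal-like cells alone, the epithelial-like level was higher at all 3 stages, with log2 differences of -0.66, -1.33 and -2.37. With the epithelial-like clusters low in dermal markers, the E13.5 value was 0.27. Against deep dermal-like cells alone the differences were 2.23, 1.45 and -1.46. The turn of the whole class thus held in the deep dermal-like cells, while upper dermal-like cells lay below the level of all epithelial-like cells at all 3 stages. Against the clusters low in dermal markers, upper dermal-like cells lay above at E13.5 and below at E16.5 and P0.

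**Figure D2:**
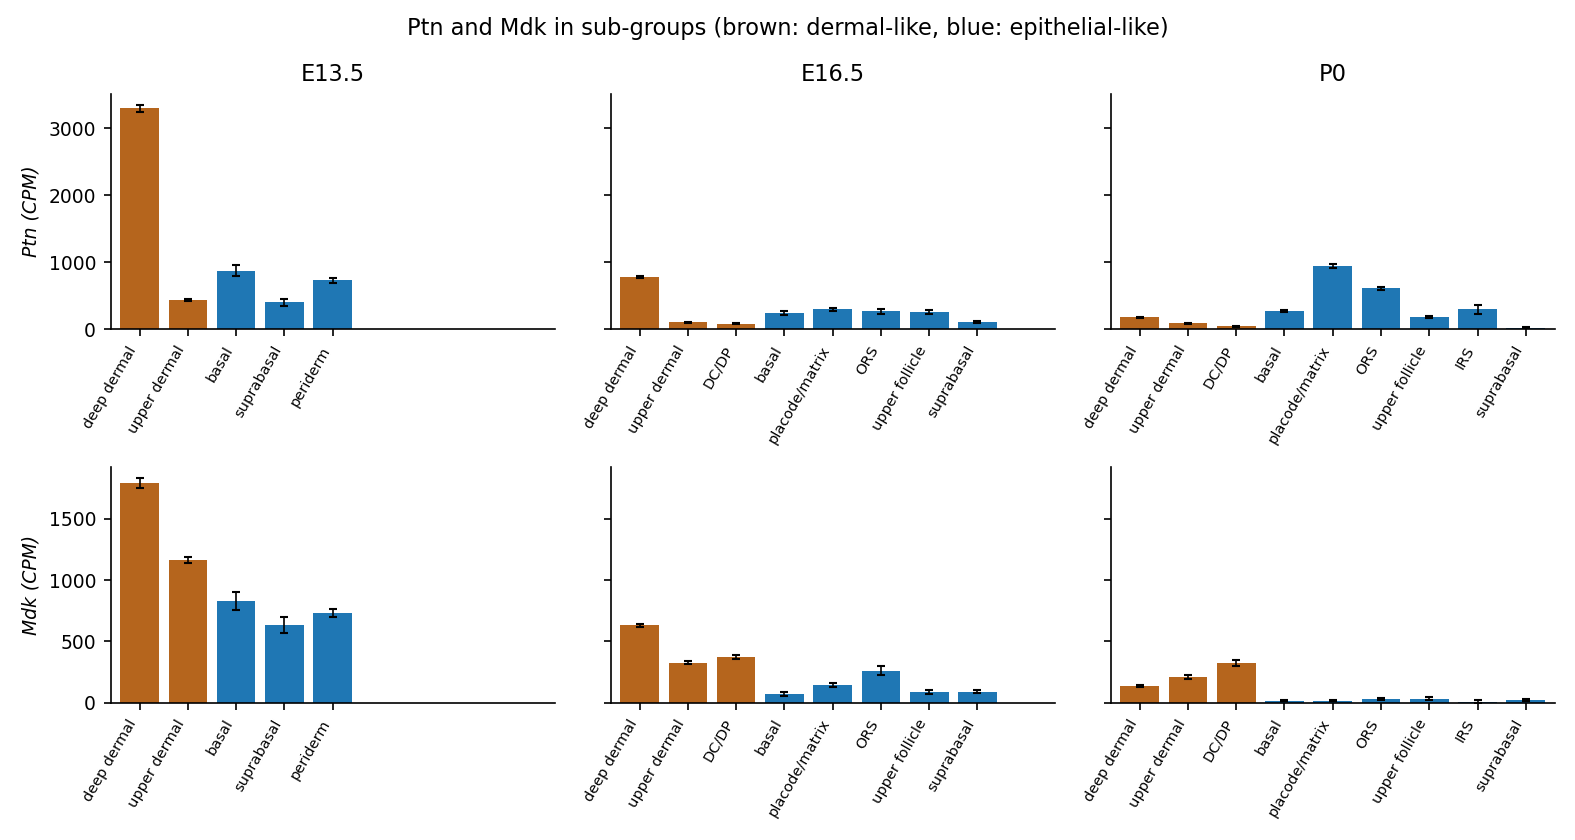
*Ptn* (top) and *Mdk* (bottom) in named sub-groups of dermal-like (brown) and epithelial-like (blue) cells, as CPM of summed UMIs with 95% exact Poisson intervals; ORS and IRS are outer and inner root sheath, and cells without a sub-group name are not drawn. *Ptn* stands highest at E13.5 in deep dermal-like cells (3295 CPM) and at P0 in matrix-like cells (946 CPM), and *Mdk* at P0 is highest in DC/DP-like cells (325 CPM).

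Within the P0 epithelium, *Ptn* was highest in matrix-like and outer root sheath-like cells, and upper follicle-like cells were below basal-like cells. Matrix-like cells, named from genes of the placode and hair matrix such as *Shh*, *Lhx2* and *Hoxc13*, held 946 CPM (917 to 975) and outer root sheath-like cells 610 CPM (586 to 635). Basal-like cells held 275 CPM (259 to 292), upper follicle-like cells 184 CPM and suprabasal-like cells 20.4 CPM (12.5 to 31.6), from 20 UMIs in 71 cells. Matrix-like minus basal-like was 1.75 (1.65 to 1.84) on the log2 scale, where 6.85% of genes were past the fold. The highest epithelial-like cluster, 21 cells led by *Krt35*, *Mt4* and *Krt28*, held 1929 CPM, and the lowest, 28 cells led by *Krt1* and *Krt10*, held 3.16 CPM. Matrix-like cells were 7.48% of the P0 library and held 31.6% of its *Ptn* UMIs. At E16.5 the named epithelial sub-groups other than the suprabasal-like cells (108 CPM) lay within a narrow band, from 240 CPM in basal-like to 295 CPM in placode-like cells, with intervals that overlapped (212 to 272 and 271 to 320).

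Clusters, which are not replicates, show the spread inside each class. At E13.5 the 37 dermal-like clusters ran from 219 to 6533 CPM of *Ptn* around a median of 820 CPM and the 12 epithelial-like clusters from 123 to 1456 CPM around 801 CPM, so the medians were alike while 13 dermal-like clusters lay above every epithelial-like one. At E16.5, 14 of 70 dermal-like clusters lay above and 28 below all 21 epithelial-like clusters. At P0, 2 of 52 dermal-like clusters lay above the epithelial-like median of 521 CPM, at 1010 and 975 CPM, and both were deep dermal-like clusters led by *Mfap5* or *Igfbp6*.

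**Figure D3:**
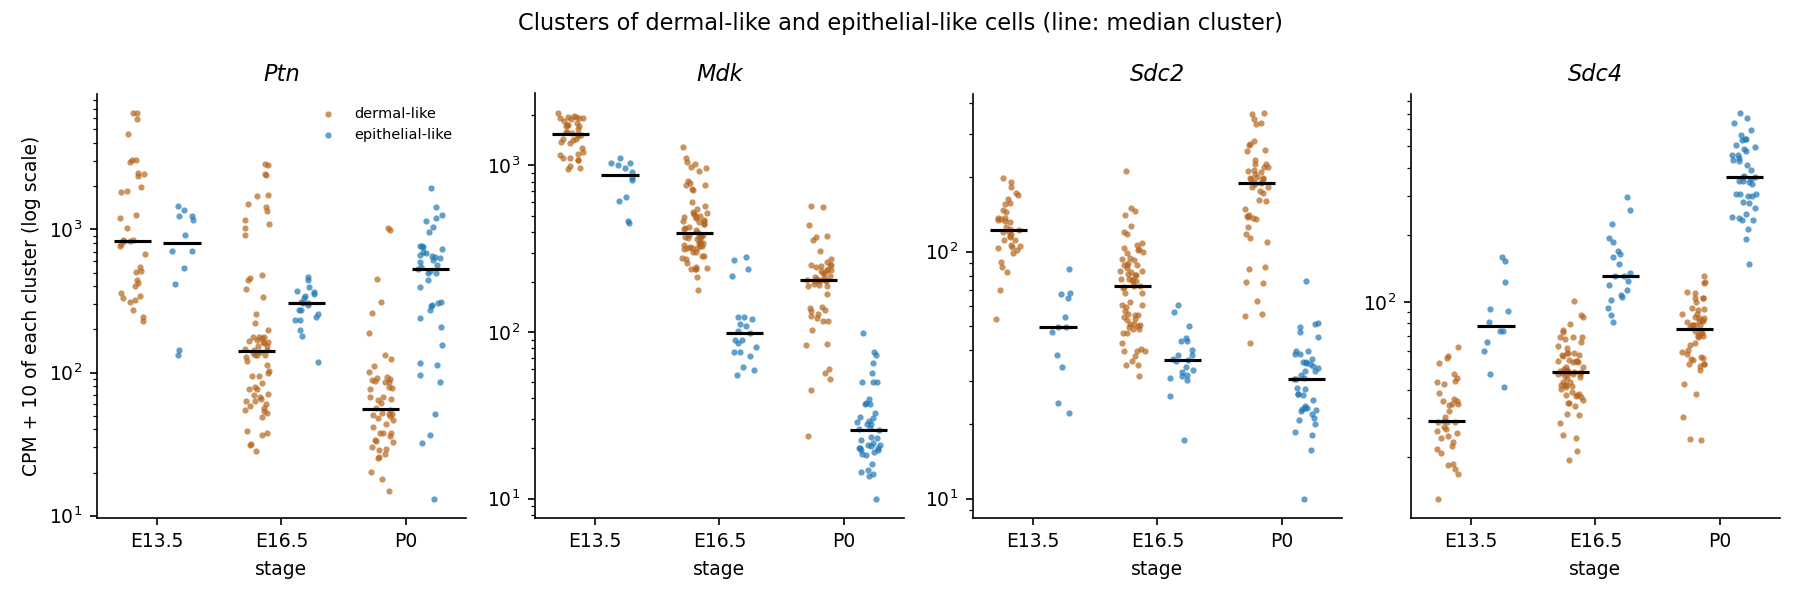
Each point is 1 cluster of dermal-like (brown) or epithelial-like (blue) cells, on a log axis of CPM with 10 added, with the median cluster as a line. *Ptn* clusters of the dermal class spread over more than an order of magnitude at each stage and overlap the epithelial ones, whereas at P0 all 52 dermal-like clusters lie below all 43 epithelial-like clusters for *Sdc4*.

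*Mdk*, the other ligand, kept its dermal excess and became scarce in the epithelium. It was at 1449 CPM (1430 to 1468), 441 CPM (434 to 448) and 194 CPM (187 to 201) in dermal-like cells at E13.5, E16.5 and P0. Epithelial-like cells held 773 CPM (746 to 800), 114 CPM (109 to 120) and 21.3 CPM (19.3 to 23.5). The log2 difference, dermal-like minus epithelial-like, was 0.90 (0.85 to 0.95), 1.86 (1.80 to 1.93) and 2.70 (2.60 to 2.81), so the gap was wider at each later stage. At P0, 40.7% of dermal-like and 6.19% of epithelial-like cells had an *Mdk* UMI after thinning (55.2% and 18.6% before), and 4.55% of immune-like and 3.42% of endothelial-like cells did (13.6% and 9.83% before). The P0 epithelial-like level of 21.3 CPM was close to the 20.9 CPM (11.4 to 35.1) of immune-like cells, and above the 12.98 CPM (9.09 to 18.0) of endothelial-like cells, and outer root sheath-like and upper follicle-like cells held 28.0 CPM (23.1 to 33.7) and 31.7 CPM (24.1 to 41.0). The part of free RNA in these levels was not tested.

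The place of *Mdk* within the dermis also differed by stage. At E13.5 deep dermal-like cells held 1793 CPM and upper dermal-like cells 1168 CPM, and at E16.5 630 and 325 CPM. At P0 the order was turned, with 134 CPM in deep and 210 CPM in upper dermal-like cells, or -0.60 (-0.74 to -0.47) on the log2 scale. DP-like cells were then highest, at 325 CPM (302 to 350), which is 0.87 (0.76 to 0.99) above the other dermal-like cells, whereas at E16.5 DC-like cells were at 370 CPM, or -0.29 (-0.36 to -0.23). None of these *Mdk* differences within the dermis was past the fold. At P0, 45 of 52 dermal-like clusters lay above all 43 epithelial-like clusters.

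Between stages within a class, both ligands were lower at E16.5 than at E13.5. *Ptn* differed by -2.07 and *Mdk* by -1.69 in dermal-like cells, and by -1.29 and -2.66 in epithelial-like cells (3.81% and 7.09% of genes past the fold). From E16.5 to P0 dermal-like cells differed by -1.67 for *Ptn* and -1.15 for *Mdk*, and *Sdc2* was higher by 1.28 (4.52% of genes past the fold). In epithelial-like cells the P0 minus E16.5 difference was 0.85 (0.80 to 0.90) for *Ptn*, -1.99 for *Mdk* and 1.39 for *Sdc4* (3.84% of genes past the fold). The ligands thus parted in the epithelial-like class as a whole after E16.5, and the make-up of that class also differed between the libraries. The immune-like levels of both ligands also differed between these libraries, from 568 to 42.0 CPM for *Ptn* and from 492 to 48.9 CPM for *Mdk* between E13.5 and E16.5, and the part of free RNA in the differences was not tested.

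*Ptprz1*, the phosphatase receptor of both ligands, had its highest level in Schwann-like cells, which held 38.3%, 37.1% and 13.9% of its UMIs, while the more numerous epithelial-like cells held 6.60%, 50.6% and 62.9%. The 159 such cells of E13.5 held 116 CPM (100.5 to 134), the 109 of E16.5 held 212 CPM (188 to 237) and the 98 of P0 held 71.5 CPM (51.5 to 96.6). Dermal-like cells held 4.15, 2.19 and 1.52 CPM. Epithelial-like cells held 8.13, 26.1 and 9.86 CPM, and dermal-like minus epithelial-like was -0.36, -1.57 and -0.79 on the log2 scale. Of the named epithelial sub-groups, basal-like cells had the highest level at E16.5 (39.9 CPM, 28.8 to 54.0), with an interval that overlapped that of upper follicle-like cells (24.4 CPM, 16.1 to 35.5), and at P0 (23.4 CPM, 18.9 to 28.8). At E13.5 suprabasal-like cells held 21.2 CPM from 12 UMIs and basal-like cells 8.22 CPM from 5 UMIs, with intervals that overlapped (10.96 to 37.05 and 2.67 to 19.2). Unnamed epithelial-like cells of E16.5 held 30.7 CPM (27.1 to 34.6), while matrix-like cells at P0 had 3.83 CPM, a log2 difference of -1.27 against basal-like cells. Immune-like cells of the embryonic stages had 2.16 and 0.43 CPM, from 7 UMIs and 1 UMI, and those of P0 had 0 UMIs, where 3 counts would be 4.48 CPM. At P0 the receptor was thus highest in the basal-like cells of the named epithelial sub-groups, and *Ptn* in the matrix-like cells.

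*Sdc3*, the syndecan of nerve and muscle lineages, shared the Schwann-like peak. It was at 78.4 CPM (65.6 to 92.9), 129 CPM (111 to 149) and 119 CPM (92.9 to 151) in Schwann-like cells, against 16.3, 9.66 and 11.03 CPM in dermal-like and 9.33, 3.28 and 1.87 CPM in epithelial-like cells. Against all other cells of their library, Schwann-like cells were higher by 1.70, 2.84 and 2.89 for *Sdc3* and by 2.96, 3.65 and 2.38 for *Ptprz1* (3.95%, 6.49% and 9.97% of genes past the fold). *Ptn* in the same cells was at -1.08, 0.34 and 1.67, and its level there was 584, 334 and 905 CPM. The summed dermal markers of the Schwann-like class were at 36.3%, 26.4% and 20.1% of the dermal-like level, and their part in its *Ptn* level was not tested. The other classes with *Sdc3* past 30 CPM were melanocyte-like at E16.5 (38.9 CPM from 26 UMIs) and immune-like at P0 (32.9 CPM from 22 UMIs), and among dermal sub-groups DP-like cells at P0 held 31.4 CPM (24.5 to 39.7), 1.22 above the other dermal-like cells.

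*Sdc1* did not separate the lineages as wholes but marked sub-groups of each. Dermal-like cells held 133, 128 and 60.2 CPM and epithelial-like cells 163, 131 and 103 CPM, with log2 differences of -0.28 (-0.39 to -0.16), -0.04 (-0.11 to 0.03) and -0.68 (-0.78 to -0.59). DC-like cells at E16.5 held 350 CPM (334 to 365) and DP-like cells at P0 198 CPM (180 to 218), which is 1.96 (1.88 to 2.04) and 2.10 (1.94 to 2.26) above the other dermal-like cells. The highest E16.5 cluster, 38 cells led by *Bmp4*, *Cdkn1a* and *Sox2*, held 1310 CPM and was also the dermal-like cluster with the least *Ptn*, 18.5 CPM. DC-like cells were 9.98% of the E16.5 library and held 27.1% of its *Sdc1* UMIs.

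In the epithelium *Sdc1* was highest in suprabasal-like cells, at 247 CPM (208 to 292), 214 CPM (190 to 239) and 298 CPM (265 to 335). Matrix-like cells at P0 held 50.2 CPM (43.9 to 57.3) and basal-like cells 143.3 CPM (131.5 to 155.8), a log2 difference of -1.35. *Ptn* and *Sdc1* stood in opposite order across these 3 of the named P0 sub-groups, as they did between DC-like and deep dermal-like cells. Outer root sheath-like, upper follicle-like and inner root sheath-like cells (352, 97 and 20 cells) were not placed in this order. No pattern is therefore read for the P0 epithelium, and a relation between the genes was not tested. Pericyte-like cells had 102 CPM of *Sdc1* at E16.5 and 152 CPM at P0.

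*Sdc2*, the mesenchymal syndecan, was higher in dermal-like cells at every stage. It was at 114 CPM (109 to 119), 63.9 CPM (61.2 to 66.7) and 170 CPM (164 to 176) there and at 39.5, 27.8 and 23.6 CPM in epithelial-like cells, with differences of 1.33 (1.14 to 1.51), 0.97 (0.85 to 1.08) and 2.42 (2.31 to 2.52). Upper dermal-like cells held more than deep ones at P0, 248 CPM (233 to 265) against 116.4 CPM (107.5 to 125.8), a log2 difference, deep minus upper, of -1.03 that is past the fold. The intervals of upper and deep cells did not meet at E13.5 or E16.5 either (127 against 104 CPM and 79.9 against 44.4 CPM). The highest P0 cluster was 59 upper dermal-like cells led by *Crabp1* and *Kcnk2*, with 356 CPM.

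*Sdc4*, a syndecan of focal adhesions, was the epithelial counterpart. It was at 72.5 CPM (64.6 to 81.1), 134.5 CPM (128.8 to 140.5) and 368 CPM (360 to 377) in epithelial-like cells and 23.0, 40.6 and 64.5 CPM in dermal-like cells, higher at each later stage in both. Dermal-like minus epithelial-like was -1.32 (-1.50 to -1.15), -1.52 (-1.60 to -1.43) and -2.34 (-2.43 to -2.26). At P0 outer root sheath-like cells led with 485 CPM (463 to 507), followed by upper follicle-like cells at 414 CPM, suprabasal-like cells at 369 CPM and matrix-like cells at 358 CPM. The intervals of the last 2 overlapped (332 to 409 and 340 to 376), and basal-like cells were lower at 283 CPM (267 to 301). Immune-like cells also held *Sdc4*, at 69.2, 112 and 233 CPM, above the dermal-like level at each stage, and Schwann-like cells held 20.6, 84.8 and 264 CPM.

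**Figure D4:**
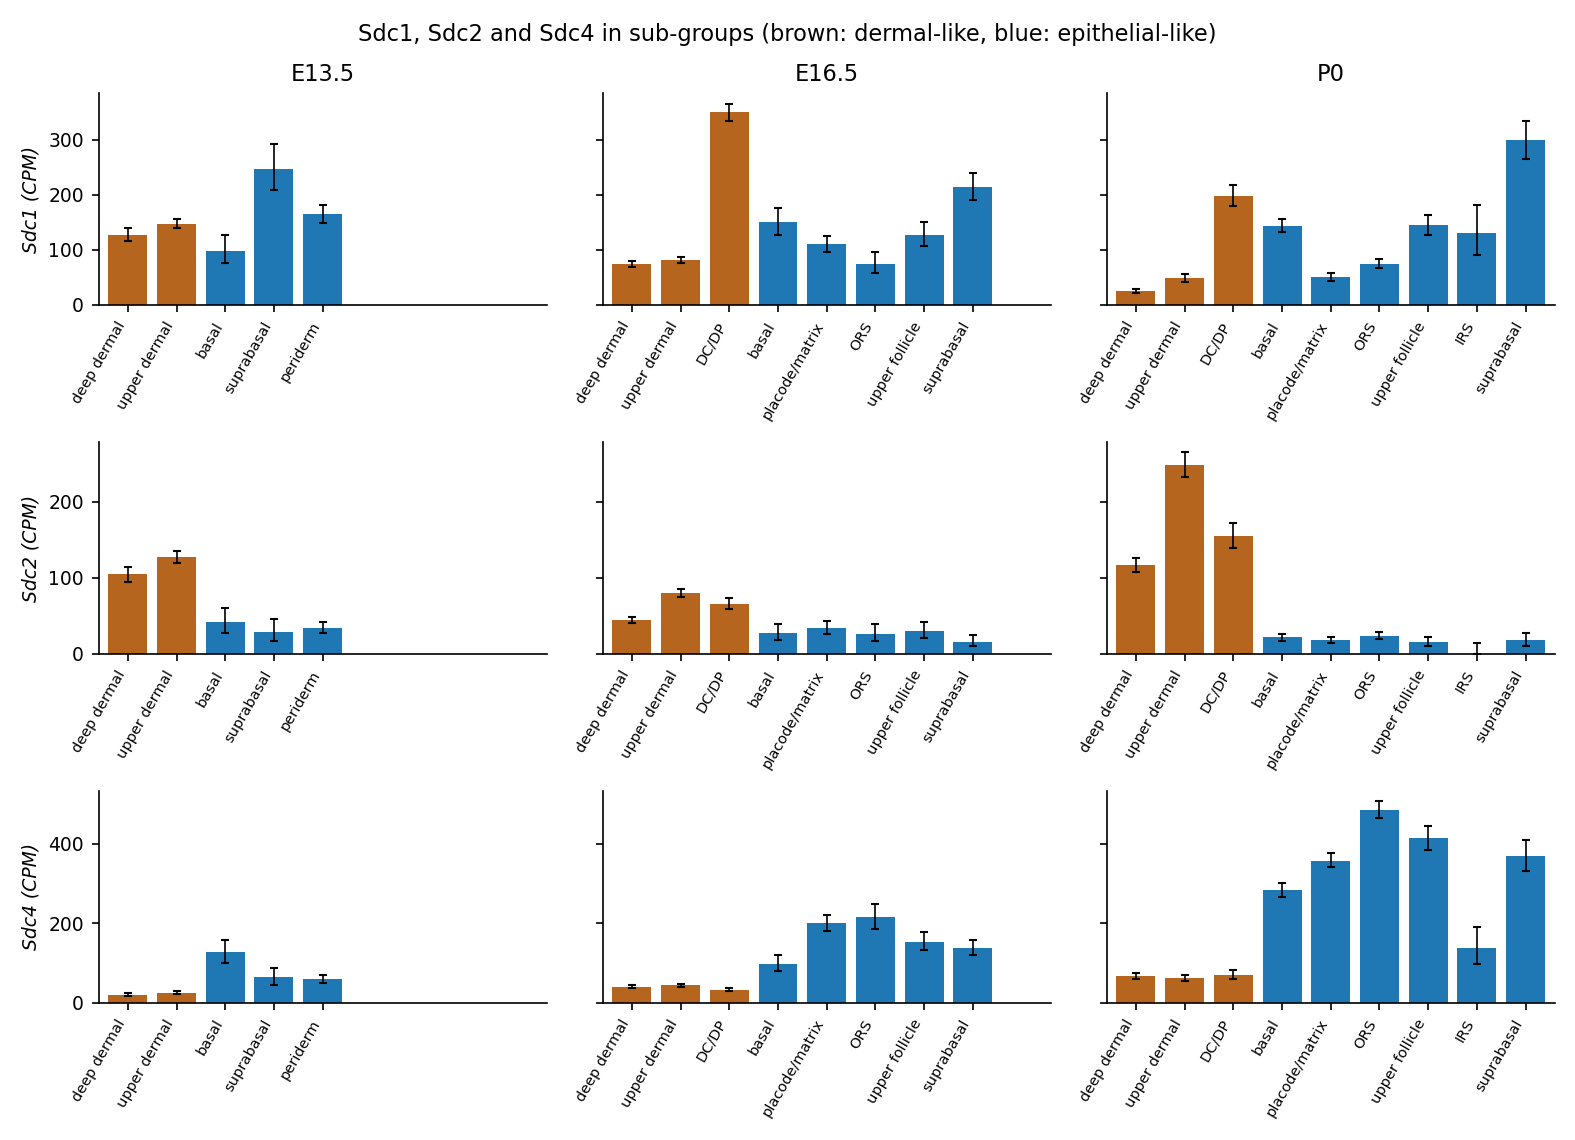
*Sdc1*, *Sdc2* and *Sdc4* in the named sub-groups, as CPM of summed UMIs with 95% exact Poisson intervals (brown dermal-like, blue epithelial-like; ORS and IRS are outer and inner root sheath). *Sdc1* peaks in DC/DP-like and suprabasal-like cells, *Sdc2* in upper dermal-like cells (248 CPM at P0) and *Sdc4* in outer root sheath-like cells at P0 (485 CPM).

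Counted over the 7 genes, 2 were past the fold to the dermal side at E13.5 (*Ptn*, *Sdc2*), 1 at E16.5 (*Mdk*) and 2 at P0 (*Mdk*, *Sdc2*), where 3.7%, 7.1% and 7.44% of all genes were. To the epithelial side it was 1 (*Sdc4*), 2 (*Sdc4*, *Ptprz1*) and 2 (*Sdc4*, *Ptn*), beside 4.3%, 4.4% and 5.33% of all genes. Nothing is read from these counts, since the genes were chosen with the contrast in view. The median log2 difference of all genes tested was 0.03, 0.05 and -0.06, so both lineages were centred alike.

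**Figure D5:**
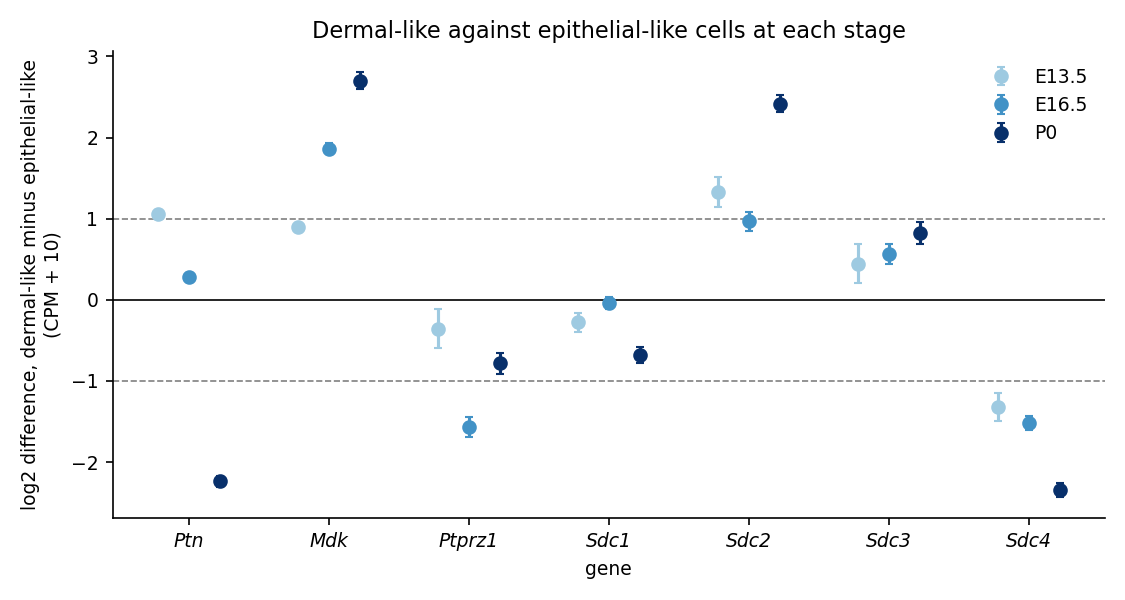
Log2 difference of CPM with 10 added, dermal-like minus epithelial-like cells, for each gene at E13.5, E16.5 and P0, with 95% counting intervals; dashed lines mark the fold of 1. *Ptn* runs from 1.05 to -2.24, *Mdk* from 0.90 to 2.70 and *Sdc4* from -1.32 to -2.34.

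The wider pathway was read from 8 lists with 81 genes, of which 79 were in the table and 62, 67 and 64 had enough UMIs. To the dermal side 7, 19 and 18 were past the fold and to the epithelial side 1, 3 and 2, beside 3.7%, 7.1% and 7.44% of all genes to the dermal and 4.3%, 4.4% and 5.33% to the epithelial side. The list medians were 0.32, 0.40 and 0.38, and those of all genes 0.03, 0.05 and -0.06. The lists covered other reported receptors of the ligands, glypicans, enzymes that build and edit heparan and chondroitin sulfate, partners of the syndecan tail, and syndecan sheddases. Among other receptors, *Nrp1*, a co-receptor for semaphorins and VEGF, was past the fold in dermal-like cells at all stages (518, 251 and 55.4 CPM against 95.7, 32.1 and 3.63 CPM), as was *Lrp1*, an endocytic receptor (99.0, 126 and 98.0 CPM against 33.3, 34.8 and 18.3 CPM).

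The same held for the glypican *Gpc6* (differences of 1.14, 1.35 and 1.86), for *Sulf2*, an enzyme that removes sulfate from heparan chains outside the cell (1.16, 2.22 and 1.96), and for the membrane metalloproteases *Mmp14* (1.02, 1.52 and 1.55) and *Mmp16* (1.15, 1.81 and 1.59). *Tiam1*, a Rac exchange factor that binds the syndecan tail, was the 1 gene of the lists past the fold to the epithelial side at all stages (-1.37, -1.45 and -1.42). No gene of the lists was past the fold on opposite sides at different stages. The sign alone did differ between E13.5 and P0 for some of them, in both directions. *Gpc4* (0.46 and -0.54), *Ext1* (0.94 and -0.48) and *Csgalnact1* (0.41 and -0.65) went from the dermal to the epithelial side. *Hs6st1* (-0.62 and 0.20) and *Xylt1* (-0.25 and 0.64) went the other way. So did *Notch2*, from -0.35 at E13.5 to past the fold on the dermal side at P0 (133 against 40.4 CPM). These are examples, and other genes of the lists changed sign in each direction. In the chondroitin sulfate list 0, 6 and 4 of 12, 13 and 13 genes were past the fold to the dermal side (3.7%, 7.1% and 7.44% of all genes). To the epithelial side 0, 1 and 0 were (4.3%, 4.4% and 5.33% of all genes). In the list of the linker sugars shared by both chain types 0 of 6 were in either direction at each stage.

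Over 28 groups (the named classes of at least 30 cells at each stage), the genes whose log2 levels were most like *Ptn* were *Adgrl3*, *Ift74* and *Fjx1* (Pearson r of 0.89, 0.85 and 0.85). For *Mdk* they were *Meis2*, *Vcam1* and *Osr1* (0.93, 0.92 and 0.92), and for *Sdc1* *Cacnb3*, *Sema5a* and *Cachd1* (0.79, 0.76 and 0.76). *Sdc2* was most like *Arhgef25*, *P3h3* and *Tmed1* (0.82, 0.82 and 0.81), *Sdc3* like *Nr4a2*, *Vat1l* and the Schwann marker *Foxd3* (0.88, 0.85 and 0.85) and *Sdc4* like the epithelial marker *Krt17*, *Stxbp2* and *Fxyd3* (0.83, 0.83 and 0.82). Groups of a stage share their library, its depth and its free RNA, and the groups include the erythroid-like cells of P0, so these values are descriptions.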

How the data were processed

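Back skin cells were captured with 10x 3′ v2 chemistry. Per the labels and the methods, the authors counted UMIs with Cell Ranger 2.2.0 on mm10, removed genes found in fewer than 3 cells as well as cells under 1750 genes, and deposited natural log values (ln of 1 plus UMIs scaled to 10000 per cell). The scale was found from the values. All 48197283 values above 0 came back as whole UMIs (tolerance 0.001), giving 53334740, 66239195 and 46599806 UMIs. The study states fewer cells than the table holds. Libraries shared 32 to 44 cell barcodes in pairs.

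The 7 genes, the marker lists and the pathway lists were chosen with earlier results of these data known. Clustering used scanpy 1.11.5 within each library (2000 variable genes, 30 components, 15 neighbours, Leiden resolution 1, clusters of at least 100 cells split again). Cluster names came from the marker list whose log2 difference over the 25th percentile of clusters had the largest mean, with at least 3 markers past 1 and a mean of at least 0.5. It was left unnamed where another class had more markers among its 10 leading genes or, outside the dermal and epithelial classes, where none of its own was there. These last rules were set after the clusters had been seen. Sub-groups were named likewise. Called doublets (0, 84 and 106 by Scrublet) were kept, and the caller did not work at E13.5. Genes named beside the 7 were the 3 most alike over groups and pathway genes past the fold at all stages or on opposite sides. Cluster leaders and others were chosen after their values were seen. Thinning to 3500 UMIs left out 1 cell. The fold rule was checked on simulated data, but the outcome is not given here and nothing is read from it. Alternatives numbered 11 planned and 5 added after seeing the data. Whether counting used strand is not given in the sources used here. Sequences are from RefSeq (GRCm38.p6).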

Additional observations from a re-analysis of the deposited data

Results flagged for a closer look

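The *Ptn* difference between dermal-like and epithelial-like cells had opposite directions at different stages: on the log2 scale, dermal-like minus epithelial-like, it was 1.05 and 0.27 in the embryonic libraries (E13.5, E16.5) and -2.24 at birth. The difference between stages was not tested, since each stage is 1 library, and the gene was chosen for this pattern. Upper dermal-like cells alone gave a negative value at all 3 stages when set against all epithelial-like cells.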

How the results depend on the processing

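No paired analysis was possible because each stage is 1 library, and no replicate could be left out. The cause of the shifts below was not tested, other than the choice of cells that each alternative makes. All *Ptn* values are log2 differences, dermal-like minus epithelial-like. At E13.5 (1.05) *Ptn* was 0.92 at clustering resolution 2, 0.95 with the described genes among the variable genes, 1.15 in cells with at least 2500 genes, 0.95 with each cell weighed alike, 1.91 with clusters named over all other cells, 2.24 with cells classed by their own marker UMIs and 0.99 after thinning. At E16.5 (0.27) it was 0.20, 0.34, 1.09 and 0.22 at resolution 2, with the described genes included, with naming over all other cells and with single-cell markers. At P0 (-2.24) it was -2.07 in cells with at least 2500 genes, -2.44 with cells weighed alike, -2.34 with 1 added to each CPM, -1.22 with naming over all other cells, -1.56 with single-cell markers and -2.46 after thinning. Alternatives chosen after seeing the data gave 1.98 at E13.5 for epithelial-like clusters low in dermal markers and 0.19 at E16.5 with clusters led by another class kept. Upper dermal-like cells alone reversed E13.5 (-0.66) and gave -1.33 and -2.37 later, or 0.27, -1.32 and -2.40 with the low-marker epithelial clusters, and deep dermal-like cells alone gave 2.23, 1.45 and -1.46.

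The number of genes past the fold rested on what is added to each CPM. With 1 in place of 10, genes higher in dermal-like cells went from 431, 900 and 903 to 1115, 2031 and 1921, and those higher in epithelial-like cells from 502, 558 and 647 to 913, 1255 and 1552. At E13.5 the dermal count was 958 with single-cell markers and 925 with the low-marker epithelial clusters, and the epithelial count was 326 after thinning. For the other 6 genes, for which upper and deep dermal-like cells were not taken alone, the sign turned for *Ptprz1* at E13.5 with single-cell markers (0.09) and *Sdc1* at E16.5 after thinning (0.07). Calls were gained for *Mdk* at E13.5 (0.90, up to 1.42), *Sdc2* at E16.5 (0.97, up to 1.17), *Sdc3* at E13.5, E16.5 and P0 (up to 1.28, 1.32 and 2.07), *Ptprz1* at P0 (-0.79, to -2.11) and *Sdc1* at P0 (-0.68, to -1.66). *Ptprz1* at E16.5 was -3.09 with 1 added, *Sdc1* at E13.5 ran from -0.62 to -0.03, and no call of these 6 genes was lost. The E13.5 *Ptn* call was lost at resolution 2, with the described genes included, with cells weighed alike and after thinning. It was also lost with upper dermal-like cells alone, against all epithelial-like cells or the low-marker clusters. *Ptn* calls were gained at E16.5, to the dermal side with naming over all other cells and with deep dermal-like cells alone. Upper dermal-like cells alone, against all epithelial-like cells or the low-marker clusters, gave a call to the epithelial side there. The alternative without doublets was not run at E13.5. Depth limits *Ptprz1* and *Sdc3* most, with 25 and 36 UMIs in P0 dermal-like and epithelial-like cells.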

Other observations

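Of the 10993 genes with at least 50 UMIs in both lineages together at every stage, 8 passed from the dermal to the epithelial side of the fold between E13.5 and P0, which is 0.0728%, and 7 passed the other way. Beside *Ptn* the 8 were *Sp5*, *Flrt3*, *Efnb1*, *Cntfr*, *Casz1*, *Ccnd1* and *Smoc2*. *Casz1*, a zinc finger transcription factor, went from 1.73 to -3.27 and *Sp5*, a target of Wnt signalling, from 2.01 to -1.78. *Ccnd1*, which encodes cyclin D1, went from 1.32 to -1.03. *Penk*, the proenkephalin gene, had the largest swing of the 7 in the other direction, from -2.41 to 2.40. These genes were picked by their values and were given no test.

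The highest *Ptn* level of any E13.5 cluster, 8685 CPM, was in 30 unnamed cells led by *Cbln2*, *Pamr1* and *Ephb1*. The 1236 unnamed cells of that library held 27.4% of its *Ptn* UMIs at 1852 CPM, and cartilage/tendon-like cells held 2344 CPM.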
